A study of Mus musculus with 6 samples.

Results

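Annexins and galectins are 2 families of proteins that bind the lipid and the sugar face of cell membranes, and 10 of their genes were followed here in 6 mouse gliomas. The members were Anxa1 to Anxa6 and Lgals1, Lgals3, Lgals8 and Lgals9, chosen by gene symbol. All 10 were measured, among 19938 genes tested. Each gene was read through its single-symbol Affymetrix probe set with the highest mean. Only Anxa6 had 2 such probe sets, and the other 9 members had 1 each.

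Annexins are cytosolic proteins that bind phosphatidylserine and other acidic phospholipids when calcium rises. They act in membrane repair, endocytosis, exocytosis and the resolution of inflammation, and several pair with small S100 proteins. Galectins are lectins for beta-galactosides that are made in the cytosol and leave the cell by a route without a signal peptide. Outside the cell they crosslink glycans on receptors, inside it they bind damaged endosomes and lysosomes, and galectin-1 and galectin-3 are much studied in glioma and in the myeloid cells around it.

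The tumours were 3 relapsed gliomas, numbered 1, 2 and 3 in the labels, which had regrown after the mutant EGFR that drove them was extinguished, and 3 control gliomas, numbered 1, 2 and 4. All 6 grew from glioma cells driven by mutant EGFR, placed under the skin of the flank in Nu/Nu mice, a strain that lacks a thymus but keeps macrophages, neutrophils and natural killer cells. Some of the mice were given doxycycline in the drinking water, at 2 g/L, and tumours were taken at 2 cm3. The labels do not say which group was given the drug, which species the mutant receptor came from, how many cell lines were implanted or whether each tumour came from its own mouse. The 6 titles carry different M numbers, those of the control tumours with a letter R or L, and the labels do not say what these stand for. The p-values therefore measure the spread between these samples, which may be technical. The design asks how tumours that regrew after the mutant receptor was extinguished differ from the control tumours. Egfr itself was at 9.89 ± 0.46 in relapsed and 9.65 ± 0.38 in control tumours (SD, 3 arrays each). Its probe set reads the mouse gene and does not check the extinction of a mutant form of unstated species.

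Each value is an intensity as the authors deposited it, 1 array per tumour, taken as log2 from its range, so a difference of 1.00 is a 2-fold change. A gene was called when its limma p-value, adjusted by Benjamini-Hochberg over all genes, was under 0.05. Genes said to rise or fall were called higher or lower in relapsed tumours. Of all genes, 9.16% were called, 735 of them higher and 1091 lower after relapse. When arrays were centred on their medians over all probe sets, these numbers were 696 and 1687, and the median difference over genes was -0.09 in place of -0.02. In the probe set that stood for each member, the lowest value on any array was 8.55, against a median of 5.66 over probe sets that are not listed with a gene. The second Anxa6 probe set was dimmer, as given below. Markers of other tissues were high on single arrays. The mean log2 intensity of 9 keratinocyte markers was 7.51 in relapsed 3 and 5.81 to 6.06 in the other 5 arrays, that of 8 adipocyte markers was 9.47 in relapsed 1 and 6.14 to 6.59 elsewhere, and that of 8 skeletal muscle markers was 9.67 in control 2 and 7.13 to 7.91 elsewhere. Markers of glioma and glial progenitors were present in every tumour, at a list mean of 8.997 to 9.16 in relapsed and 10.09 to 10.72 in control gliomas. Of these 11 markers 5 were called lower in relapsed tumours, and by mean 8 were lower and 3 higher.

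Of the 10 members, 4 rose in relapsed gliomas, namely Lgals3, Anxa1, Anxa3 and Anxa4, and 1 fell, Anxa6, while 5 were not called. Over all genes, 3.69% were called higher and 5.47% lower. The 4 that rose did so by 2.14- to 3.05-fold, and 3.14% of all genes were both called and changed at least 2-fold. The groups did not overlap for 7 members, 6 higher and 1 lower, against 30.8% of all genes, 13.0% higher and 17.8% lower. The median difference was 0.36 over the members, 0.75 over the 6 annexins and 0.17 over the 4 galectins, against -0.02 over all genes. These 10 genes were listed with earlier results of these data known, and Lgals3 and Anxa1 had been reported before as changed, so the counts are a description of the members.

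**Figure D1:**
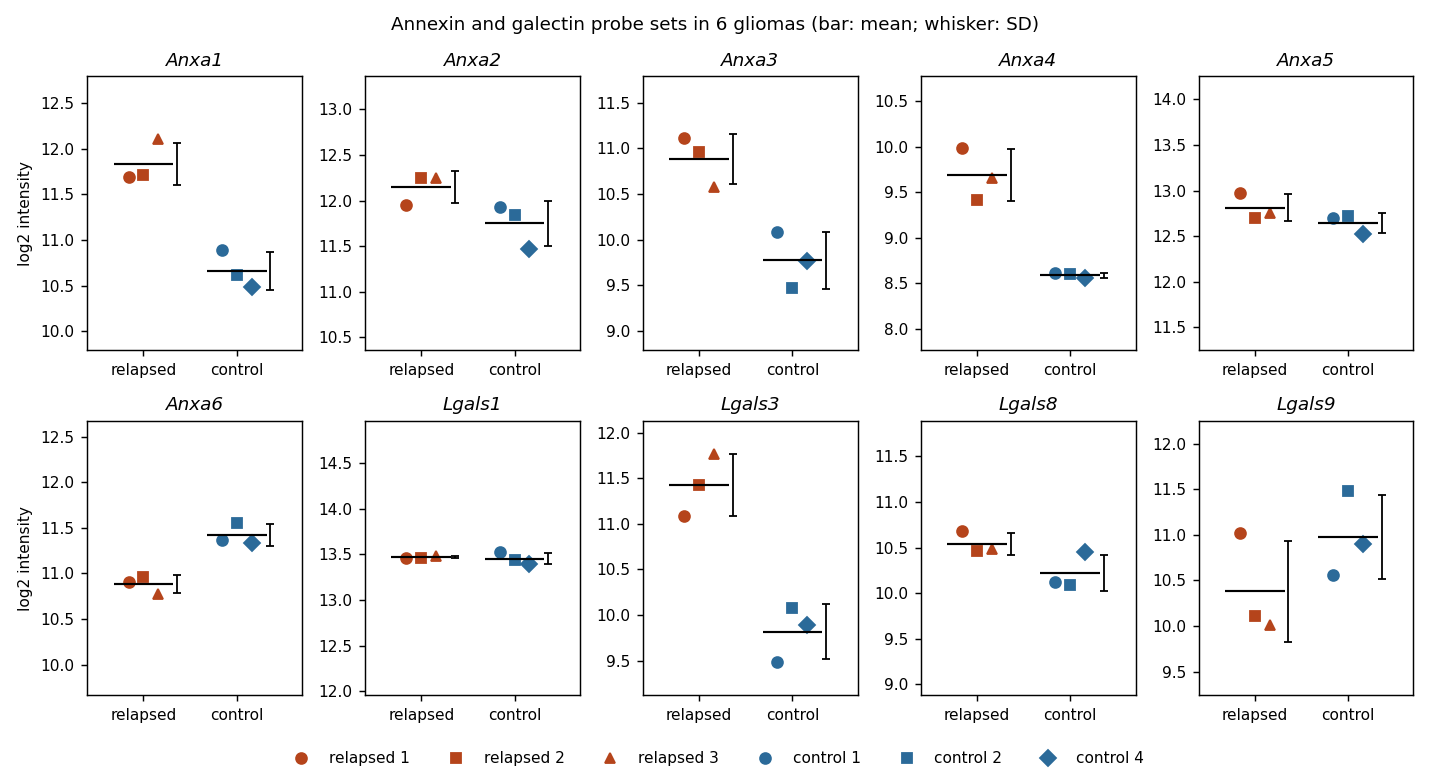
Log2 intensity of the 10 members in each tumour, relapsed gliomas on the left and control gliomas on the right of every panel, with the mean as a bar and the SD as a whisker (3 arrays per group). All panels span the same range of log2 units. Lgals3, Anxa1, Anxa3 and Anxa4 stand higher in all 3 relapsed tumours than in any control tumour, Anxa6 stands lower, and Lgals1 is level.

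The start regions of Anxa1, Anxa4 and Lgals3, members that rose, are shown as a description. Whether these genes share regulation was not tested. Each window runs from 250 bases before to 50 bases after the annotated start (RefSeq, GRCm38.p6), 5' to 3' on the strand of the gene. Anxa1 lies at chr19:20390622-20390921 on the minus strand, Anxa4 at chr6:86793535-86793834 on the minus strand and Lgals3 at chr14:47373610-47373909 on the plus strand. Capitals mark matches to the 6 motifs given below.
Anxa1: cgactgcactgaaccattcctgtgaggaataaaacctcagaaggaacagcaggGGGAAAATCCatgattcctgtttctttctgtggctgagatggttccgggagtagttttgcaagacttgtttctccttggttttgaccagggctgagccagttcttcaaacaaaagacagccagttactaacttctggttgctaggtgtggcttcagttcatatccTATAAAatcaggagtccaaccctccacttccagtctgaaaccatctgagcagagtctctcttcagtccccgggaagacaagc
Anxa4: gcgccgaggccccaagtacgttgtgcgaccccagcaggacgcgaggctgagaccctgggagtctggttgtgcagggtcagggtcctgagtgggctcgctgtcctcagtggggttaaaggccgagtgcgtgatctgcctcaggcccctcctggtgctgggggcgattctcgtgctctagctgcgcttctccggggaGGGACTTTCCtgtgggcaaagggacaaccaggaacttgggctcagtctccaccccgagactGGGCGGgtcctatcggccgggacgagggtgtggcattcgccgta
Lgals3: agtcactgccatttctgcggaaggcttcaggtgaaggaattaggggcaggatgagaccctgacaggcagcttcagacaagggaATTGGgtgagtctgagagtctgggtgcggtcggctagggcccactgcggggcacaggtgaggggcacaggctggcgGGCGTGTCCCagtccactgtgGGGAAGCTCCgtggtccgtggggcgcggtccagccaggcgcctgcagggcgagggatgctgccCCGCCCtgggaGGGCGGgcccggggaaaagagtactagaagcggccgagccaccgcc
The table of start regions held 8 windows for 7 members. Anxa3, Anxa6 and Lgals1 were not among them, and the second window of Anxa4, at chr6:86775065-86775364, held no match.

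The motifs searched on both strands were the TATA box (TATAAA), the CCAAT box (CCAAT), the GC box (GGGCGG), the AP-1 element (TGANTCA), an NF-kB element (GGGA and CC with 4 bases between them) and a STAT element (TTCNNNGAA). Positions count from the annotated start as 1, with the base before it as -1. Anxa1 had a TATA box at -32 to -27, which 13.6% of all 32851 windows hold at any position, and an NF-kB match at -197 to -188. Anxa4 had an NF-kB match at -55 to -46, and Lgals3 had 2, at -91 to -82 and -70 to -61. NF-kB matches were found in 20.7% of all windows. Around the start Anxa4 had 1 GC box and Lgals3 had 2, found in 35.7% of windows, and Lgals3 had a CCAAT box at -167 to -163, found in 37.4%. None of the 3 printed windows held the AP-1 or STAT letters, which 7.81% and 8.30% of windows hold. Members that were not called held matches as well. Anxa2 had a TATA box at -17 to -12, 3 GC boxes and the only AP-1 match among the members, at -95 to -89. Lgals9 had an NF-kB match at -129 to -120 and Lgals8 had 2 CCAAT boxes. The GC content was 47.3%, 65.3% and 67.0% for the windows of Anxa1, Anxa4 and Lgals3, against a median of 52.7%. A match describes the letters in the window and is not shown to be a bound site.

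Lgals3 encodes galectin-3, the only chimeric galectin, which forms lattices on cell surfaces and is also the macrophage antigen Mac-2. It gave the largest difference of the 10 members. Its log2 intensity was 11.09, 11.43 and 11.77 in relapsed 1, 2 and 3, against 9.48, 10.08 and 9.89 in control 1, 2 and 4. The lowest relapsed tumour stood 1.01 above the highest control. The difference was 1.61 ± 0.23 (SE, 3 arrays per group), or 3.05-fold with a 95% interval of 2.06 to 4.54, and the limma adjusted p was 0.020. Of all genes, 1.42% differed by more in either direction. Lgals3 kept its call without relapsed 1 and without control 2, and missed it narrowly without relapsed 2, relapsed 3, control 1 or control 4, with adjusted p of 0.0702, 0.0629, 0.0596 and 0.0757 in limma.

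Anxa1 encodes annexin A1, a protein that glucocorticoids induce and that limits neutrophil recruitment through formyl peptide receptors. The 3 relapsed tumours, in the order 1, 2 and 3, had log2 intensities of 11.69, 11.72 and 12.10, against 10.89, 10.62 and 10.48 in control 1, 2 and 4. The groups were 0.81 apart at their nearest. The difference was 1.18 ± 0.16 (SE), or 2.26-fold with a 95% interval of 1.72 to 2.97, at a limma adjusted p of 0.0184. As for Lgals3, relapsed 3 was the highest tumour. Without that tumour the difference of Anxa1 was 1.04, with an adjusted p of 0.0558 in limma, and that of Lgals3 was 1.44. The call of Anxa1 held without relapsed 1 or control 1, and the adjusted p was 0.0569, 0.0593 and 0.0671 in limma without relapsed 2, control 2 and control 4.

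Anxa4 encodes annexin A4, an annexin of epithelia and secretory cells that forms ordered arrays on membranes. Anxa4 read 9.98, 9.42 and 9.65 in relapsed 1, 2 and 3, against 8.61, 8.60 and 8.55 in control 1, 2 and 4, so the relapsed tumours were spread and the controls were close to each other. All relapsed values lay above all control values, by at least 0.81. The difference was 1.10 ± 0.15 (SE), or 2.14-fold with a 95% interval of 1.65 to 2.76, at a limma adjusted p of 0.0186. Leaving out relapsed 1 or relapsed 2 kept the call, and leaving out relapsed 3, control 1, control 2 or control 4 gave adjusted p of 0.0679, 0.0665, 0.0583 and 0.0748 in limma.

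Anxa3 encodes annexin A3, which is abundant in neutrophil granules and is also made by endothelial and carcinoma cells. Anxa3 read 11.11, 10.97 and 10.57 in relapsed 1, 2 and 3, against 10.08, 9.47 and 9.76 in control 1, 2 and 4. Here relapsed 3 was the lowest relapsed tumour, the reverse of Lgals3 and Anxa1, and it still stood 0.49 above control 1. The difference was 1.11 ± 0.21 (SE), or 2.16-fold with a 95% interval of 1.51 to 3.10, at a limma adjusted p of 0.0364. The call of Anxa3 was lost without any 1 of the 6 arrays, at adjusted p of 0.0622 to 0.115 in limma, although the difference stayed at 0.96 or more.

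Anxa6 encodes annexin A6, the family member with a duplicated core, which acts in endocytosis, in cholesterol transport and in holding Ras GTPase-activating protein at the membrane. It was the only member called lower. Its log2 intensity was 10.91, 10.96 and 10.78 in relapsed 1, 2 and 3, against 11.36, 11.56 and 11.33 in control 1, 2 and 4. The highest relapsed tumour was 0.37 below the lowest control. The level fell by 0.53 ± 0.09 (SE) on the log2 scale, or 1.45-fold, with a 95% interval of -0.76 to -0.31 and a limma adjusted p of 0.0278. The second Anxa6 probe set was dim, at 5.95 to 6.37 in relapsed and 6.23 to 6.30 in control tumours, and its difference was -0.10 ± 0.12. With the mean of both probe sets Anxa6 was not called, with a difference of -0.32 and an adjusted p of 0.0746, and leaving out any 1 array gave adjusted p of 0.0569 to 0.0818 in limma.

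**Figure D2:**
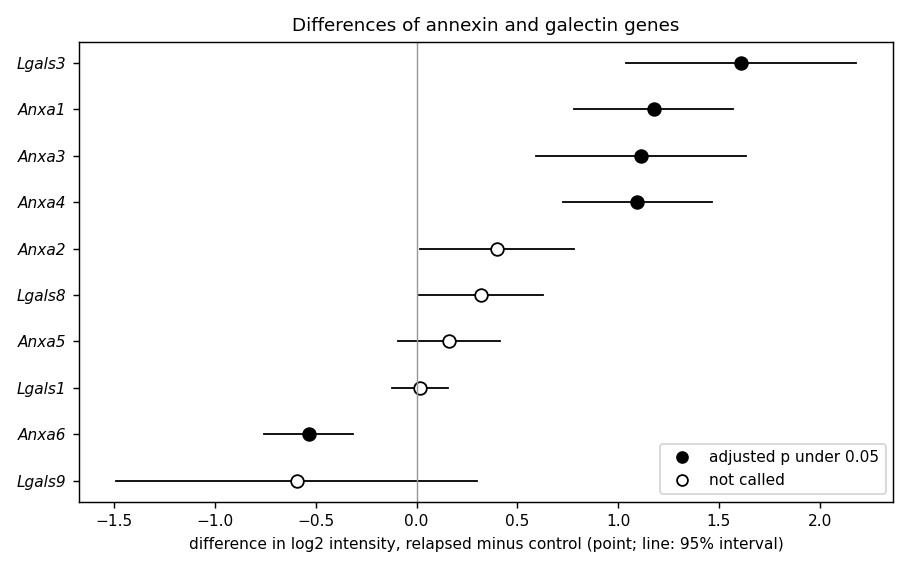
Difference in log2 intensity, relapsed minus control, for the 10 members in order of size, with 95% intervals from limma (3 arrays per group). Filled points mark adjusted p under 0.05. Lgals3, Anxa1, Anxa3 and Anxa4 lie at 1.61 to 1.10, Anxa6 lies at -0.53, and the interval of Lgals9 is the widest.

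The 2 annexins best known from other cancers and from cell death assays were not called. Anxa2 encodes annexin A2, which joins S100A10 in a tetramer that binds plasminogen activators at the cell surface. Its log2 intensity was 11.95, 12.25 and 12.25 in relapsed 1, 2 and 3, against 11.93, 11.85 and 11.47 in control 1, 2 and 4. The relapsed values lay above the control values, but relapsed 1 exceeded control 1 by only 0.02. The difference was 0.40 ± 0.15 (SE) with a 95% interval of 0.01 to 0.78, and the limma adjusted p was 0.175.

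Anxa5 encodes annexin A5, the protein used as a probe for phosphatidylserine on dying cells. Anxa5 read 12.98, 12.70 and 12.76 in relapsed 1, 2 and 3, against 12.70, 12.72 and 12.52 in control 1, 2 and 4. The groups overlapped. The difference of 0.16 had a 95% interval of -0.09 to 0.41 and a limma adjusted p of 0.377, and the interval lies below a 2-fold change.

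Lgals1 encodes galectin-1, a dimeric galectin that acts on T cells and on tumour vessels. It was level across the 6 tumours, at 13.46, 13.46 and 13.48 in relapsed 1, 2 and 3, against 13.52, 13.44 and 13.40 in control 1, 2 and 4. The difference was 0.02 with a 95% interval of -0.12 to 0.16, or 0.919- to 1.11-fold, and a limma adjusted p of 0.876. Its pooled SD within groups, 0.046, was the lowest of the members, against 0.14 for the median gene. The values stood near the top of the table, whose highest value is 14.2, and whether signal is compressed there was not tested.

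Lgals8 and Lgals9 encode tandem-repeat galectins, with a pair of sugar-binding domains in 1 chain. Galectin-8 marks damaged endosomes and bacteria-containing vacuoles for autophagy. The log2 intensity of Lgals8 was 10.68, 10.46 and 10.48 in relapsed 1, 2 and 3, against 10.12, 10.09 and 10.45 in control 1, 2 and 4. Control 4 came within 0.01 of relapsed 2. The difference of Lgals8 was 0.32 ± 0.12 (SE), with a 95% interval of 0.01 to 0.63 and a limma adjusted p of 0.175.

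Galectin-9 is a ligand of the immune receptor TIM-3, encoded by Havcr2. Lgals9 was the most variable member, with a pooled SD within groups of 0.51. Its log2 intensity was 11.02, 10.11 and 10.01 in relapsed 1, 2 and 3, against 10.55, 11.48 and 10.90 in control 1, 2 and 4. Relapsed 1 stood above 2 of the 3 control tumours, and the other relapsed tumours stood below all of them. The difference of Lgals9 was -0.59 ± 0.36 (SE), with a 95% interval of -1.49 to 0.30 and a limma adjusted p of 0.362. It was -0.91 without relapsed 1 and -0.34 without control 2, and was called in neither fit.

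**Figure D3:**
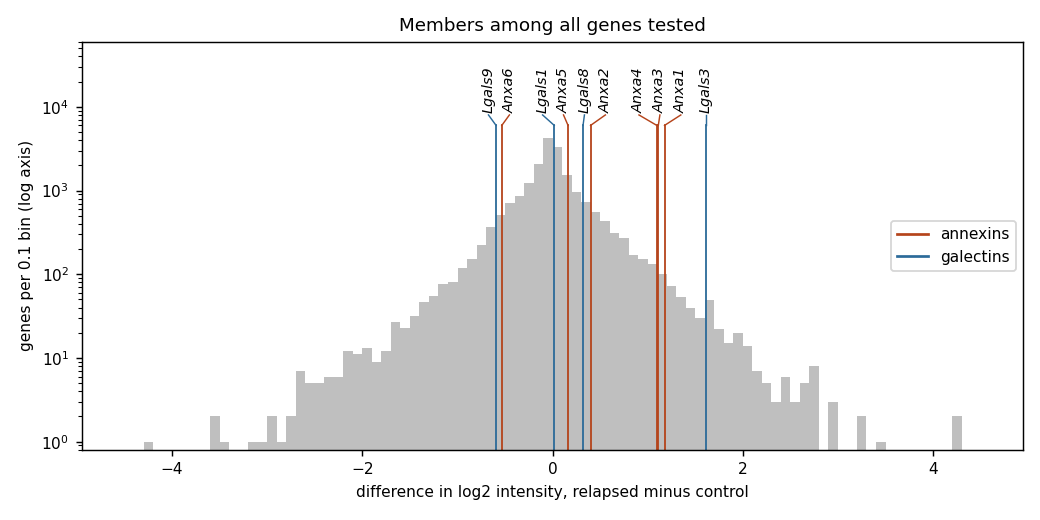
Number of genes per bin of 0.1 in the difference in log2 intensity, relapsed minus control, over all 19938 genes (grey bars, log axis), with the members as coloured lines. Lgals3 lies at 1.61 and Anxa1, Anxa3 and Anxa4 close together at 1.18 to 1.10 in the right tail, and Lgals1 lies near the centre at 0.02.

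In bulk tumours, fewer cells of a type and less RNA per cell cannot be told apart, and markers of macrophages and fibroblasts were higher in the relapsed tumours along with the members that rose, while those of endothelial cells were not. The mean of all 17 measured macrophage markers was higher in relapsed gliomas, and 12 were called higher. The mean log2 intensity of that list was 10.93, 10.50 and 10.44 in relapsed 1, 2 and 3, against 9.12, 9.50 and 9.30 in control 1, 2 and 4. Of 12 fibroblast markers 9 were called higher, with list means of 10.41 to 11.29 in relapsed and 9.13 to 9.73 in control tumours. None of these macrophage or fibroblast markers was below the median of unlisted probe sets on all arrays. Macrophages and fibroblasts are known to express Lgals3 and Anxa1, and the part of those cells in the differences was not tested. Among the relapsed tumours, the macrophage and the fibroblast list were highest in relapsed 1 and lowest in relapsed 3. Anxa3 had the same order, Lgals3 and Anxa1 the reverse order, and Anxa4 was highest in relapsed 1 and lowest in relapsed 2. The mean of the glioma and glial progenitor list was lower in relapsed tumours, as was Anxa6. Anxa6 had its highest value in control 2, in which the skeletal muscle markers were high, and without that tumour its difference was -0.46. The part of glioma cells or of muscle in the fall of Anxa6 was not tested.

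Of 8 endothelial markers 1 was called, and it fell, and 7 were lower by mean in relapsed tumours, with a median difference of -0.31. The list mean was 7.72 to 8.01 in relapsed and 8.09 to 8.23 in control tumours. The part of endothelial cells in the difference of Anxa3 was not tested. Robo4, a guidance receptor of endothelial cells, was the called marker and fell by 0.58 ± 0.12 (SE) on the log2 scale at a limma adjusted p of 0.0423.

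Of 10 neutrophil markers none was called, and 6 were higher by mean in relapsed tumours. The list mean was 5.62 to 5.92 in relapsed and 5.36 to 5.53 in control tumours, and Ly6g, Cxcr2 and Ngp lay below the median of unlisted probe sets on every array. None of the 9 keratinocyte markers was called. All were higher by mean in relapsed tumours, and the list mean was high in relapsed 3 alone. Keratinocytes are known to express Anxa1 and Lgals3. Without relapsed 3 both genes kept their direction, at 1.04 and 1.44, and 0 members were called in limma. In that fit 5 members had an unadjusted p under 0.05, as did 4323 of the 19938 genes. Anxa3 and Anxa4 had their highest value in relapsed 1, in which the adipocyte markers were high, and without that tumour their differences were 1.00 and 0.95. The part of neutrophils, keratinocytes or adipocytes in the differences of the members was not tested.

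**Figure D4:**
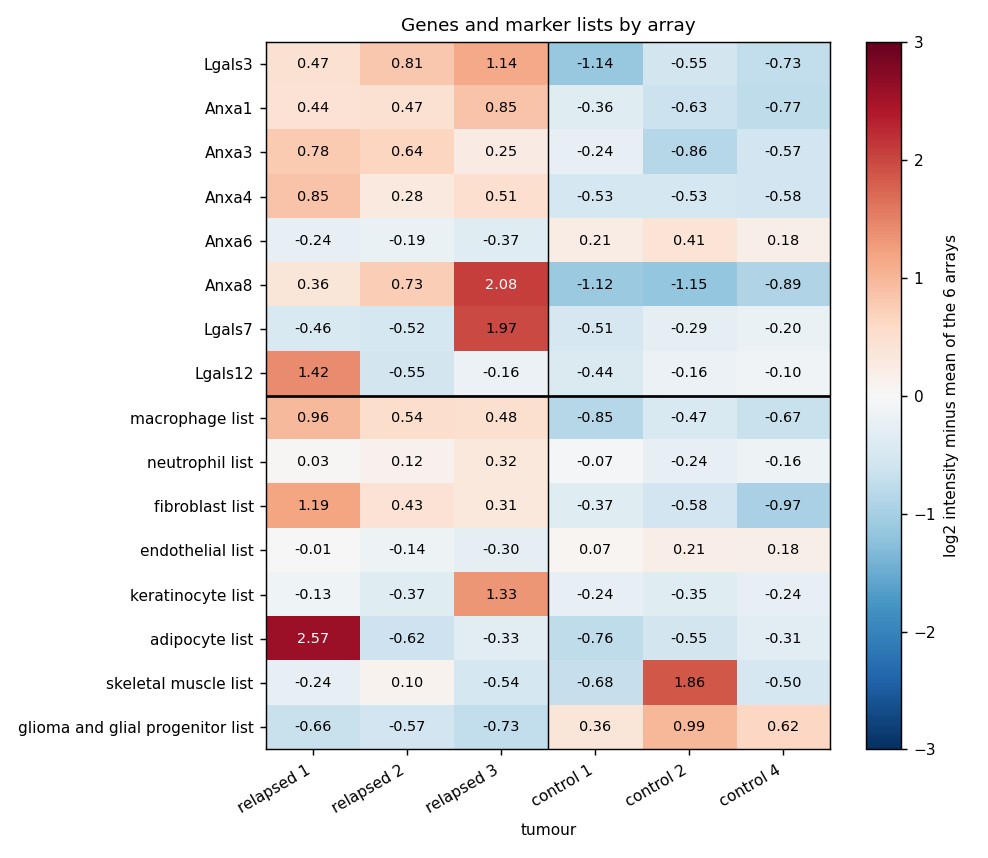
Log2 intensity minus the mean of the 6 arrays, for the called members and 3 further family genes (upper rows) and as the mean over each marker list (lower rows), in 3 relapsed tumours and 3 control tumours. Lgals7 stands out in relapsed 3 with the keratinocyte list, Lgals12 in relapsed 1 with the adipocyte list, and the macrophage and fibroblast lists are above their mean in all 3 relapsed tumours.

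The rest of both families was mostly not called. As a measure for this and the lists that follow, 9.16% of all genes were called, 3.69% higher and 5.47% lower. Among 6 other annexins 1 rose and none fell, with a median difference of 0.33 against -0.02 over all genes. That gene was Anxa8, an annexin of epithelia, at 7.87, 8.24 and 9.59 in relapsed 1, 2 and 3, against 6.40, 6.36 and 6.62 in control 1, 2 and 4. The difference of Anxa8 was 2.11 ± 0.45 (SE), at a limma adjusted p of 0.0486. Relapsed 3 was the highest here too, and without it Anxa8 differed by 1.60 ± 0.15 and was called at an adjusted p of 0.0425, the only call among its 6 fits that leave out an array.

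Among 5 other galectins none was called, with a median difference of 0.24. The smallest p-values were those of Lgals4 and Lgalsl, with differences of 0.17 ± 0.07 and 0.24 ± 0.14 and limma adjusted p of 0.196 and 0.352. Lgals4 has a near-identical copy in some mouse strains, Lgals6, so its value is uncertain. Lgals7 and Lgals12 were chosen after their values were seen. Lgals7, the galectin of stratified epithelium, was 8.40 in relapsed 3 and 5.91 to 6.23 in the other 5 tumours. Lgals12, the galectin of adipocytes, was 7.42 in relapsed 1 and 5.44 to 5.89 elsewhere. Each was high in the tumour whose keratinocyte or adipocyte markers were high.

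Among the 4 S100 partners of annexins, 2 rose and none fell, with a median difference of 1.13. S100a4, which binds annexin A2, rose by 2.61 ± 0.16, and S100a6, which binds several annexins, rose by 1.56 ± 0.29, at limma adjusted p of 0.00582 and 0.0346. S100a4 was called in all 6 fits that leave out an array and S100a6 only in that without relapsed 1. S100a10, the partner of annexin A2 in the tetramer, and S100a11, a partner of annexin A1, were not called, with differences of 0.37 ± 0.11 and 0.69 ± 0.35. The formyl peptide receptor genes Fpr1, Fpr2 and Fpr3 were sought, but had no single-symbol probe set and were not measured.

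Of 8 galectin-binding proteins 1 fell and none rose, with a median difference of 0.07. Lgals3bp encodes a secreted glycoprotein that binds galectin-3, and it moved against Lgals3. Lgals3bp read 11.80, 11.45 and 11.19 in relapsed 1, 2 and 3, against 12.12, 12.49 and 12.49 in control 1, 2 and 4. The level fell by 0.89 ± 0.19 (SE) on the log2 scale at a limma adjusted p of 0.0480, and among the fits that leave out 1 array it was called only without relapsed 1. Havcr2, the receptor of galectin-9, was 8.22 to 9.21 in relapsed and 7.41 to 7.82 in control tumours and was not called, with a difference of 0.93 ± 0.29 and a limma adjusted p of 0.114.

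Of 10 enzymes that branch, extend or cap the N-glycans galectins bind, 1 rose and none fell, with a median difference of 0.30. B3gnt2, which extends poly-N-acetyllactosamine chains, rose by 0.85 ± 0.15 at a limma adjusted p of 0.0335. By mean, 7 of the 10 were higher and 3 lower in relapsed tumours. B3gnt2 was not called when any 1 array was left out.

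Of 9 membrane repair genes 1 rose and none fell, with a median difference of 0.05. Capn1, the catalytic subunit of the calcium-dependent protease calpain-1, rose by 0.75 ± 0.11 at a limma adjusted p of 0.0197, and kept its call in 2 of the 6 fits, those without control 1 and control 2. Of 12 genes of phosphatidylserine exposure and recognition 1 rose and 1 fell, with a median difference of 0.16. Stab1, a scavenger receptor of macrophages that recognises phosphatidylserine, rose by 1.22 ± 0.21 at a limma adjusted p of 0.0289, beside the rise of the macrophage list given above. Ano6, the calcium-activated scramblase that exposes this lipid, fell by 0.62 ± 0.13 at a limma adjusted p of 0.0438. Neither Stab1 nor Ano6 kept its call when any 1 array was left out.

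For each called member, the genes of most similar course were ranked by the root mean square distance between log2 profiles over the 6 arrays, each centred on its own mean. Predicted genes, unnamed clones, olfactory receptors, microRNAs and some ribosomal RNAs were left out of the ranking. The nearest to Anxa4 were Cav1, Sec24d and Pcdh18, at distances of 0.084 to 0.090. Those to Anxa3 were Gda, Fam111a and Zfp985 at 0.082 to 0.11, and those to Anxa6 were Fdps, Supv3l1 and Trmt1 at 0.028 to 0.043. Anxa1 lay nearest to Snord14e, Snord87 and Med21, at 0.094 to 0.13. The distances were not scaled to the size of a profile, so they do not compare members with each other. Lgals3, with the largest difference of the members, had no neighbour as close among the genes ranked. Its nearest were Angpt1, Pcdh19 and Klra6, at 0.23 to 0.26, and Klra6 was itself not called. With 2 groups of 3 arrays, such distances mostly follow the difference between groups.

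**Figure D5:**
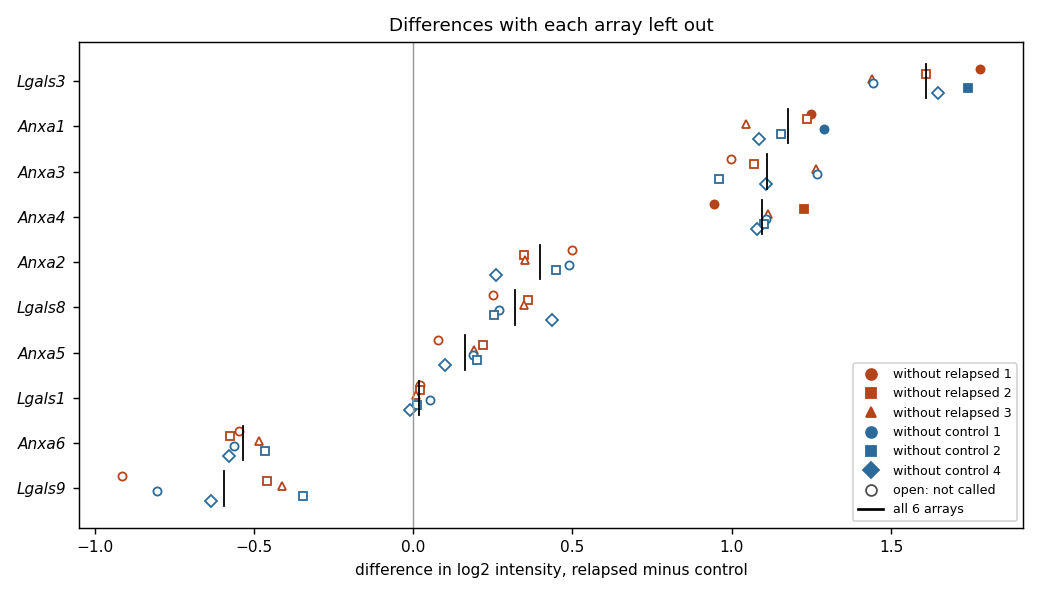
Difference in log2 intensity, relapsed minus control, with each of the 6 arrays left out in turn (symbols; filled where the gene was called) and with all arrays (black line). The differences of Lgals3, Anxa1, Anxa3 and Anxa4 stay at 0.95 or above and that of Anxa6 at -0.46 or below, while few symbols are filled.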

How the data were processed

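Gene expression was measured on Affymetrix arrays in 3 relapsed and 3 control gliomas, grouped by the labels. The deposited table holds intensities taken as log2 from their range of 1.93 to 14.2, with array medians of 6.58 to 6.68. The submitters' processing notes name affy without a version, and how background, normalization between arrays and summarization were handled is not given in the sources used here. Per the labels' protocols, labelled cRNA came from 5 ug of total RNA.

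Of 35556 probe sets, 21789 had 1 gene symbol in the platform annotation, for 19938 genes, and the probe set with the highest mean stood for each of the 999 genes with several. Values were used as deposited, without a filter. Relapsed against control was fitted with limma 3.58.1 in R 4.3.3 (lmFit, eBayes, 4 residual degrees of freedom), with two-sided p-values and Benjamini-Hochberg adjustment over all genes. The script was tested on simulated data. Errors of differences are SE from limma. Precision is limited by the number of arrays.

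The members and the gene lists were chosen with earlier results of these data known. Of 141 list entries 137 were measured. Named by rule were all members, in each family or partner list the called genes or, with none called, the 2 with the smallest p, and the 3 nearest profiles. S100a10, S100a11, Havcr2, Lgals7, Lgals12 and the marker genes were named after their values were seen. Alternatives were a filter on dim genes, quantile normalization, 2 kinds of median centring (that over all probe sets chosen after seeing the data), the mean of a gene's probe sets, all probe sets, an intensity trend, robust eBayes, a replicate block and leaving out each array.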

Additional observations from a re-analysis of the deposited data

How the results depend on the processing

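With each array left out in turn, limma called 264 to 975 genes, 0 to 3 of the 10 members and 1 to 4 of the 54 genes of the family and partner lists, against 1826, 5 and 8 with all arrays. No member was called without relapsed 3 or control 4. In these fits 5 and 6 members had an unadjusted p under 0.05, as did 4323 and 4313 of the 19938 genes. All 5 called members kept their direction in these fits and in the 8 alternatives of processing. Among those 8, Anxa6 was not called with the mean of its probe sets (adjusted p = 0.0746) and Anxa3 was not called with all probe sets tested (adjusted p = 0.0504), where 5 list genes were called. Anxa8 and Lgals3bp were not called with all probe sets tested or with robust eBayes, nor Ano6 with all probe sets tested or median centring. Over all 15 alternatives the limma adjusted p ran from 0.00767 to 0.393 for Lgals3, 0.00796 to 0.393 for Anxa1, 0.00781 to 0.412 for Anxa4, 0.0161 to 0.393 for Anxa3 and 0.0198 to 0.417 for Anxa6, highest with the replicate block. The direction of Lgals1 reversed, at -0.0570 with median centring over all probe sets, -0.0181 with the replicate block and -0.0111 without control 4, the lowest of a range up to 0.0517 over the 6 arrays left out, and Lgals1 was called in none of these. The labels share numbers 1 and 2 between groups, but nothing says that they pair the samples, and deviations of same-numbered tumours correlated at -0.34 and -0.25 over genes. With the number as a replicate block, which leaves 1 residual degree of freedom, 0 genes, 0 members and 0 list genes were called in limma, with an unadjusted p under 0.05 for 2199, 6 and 7. Each of the 5 called members lost its call without at least 1 array, and intervals of members that were not called allow changes of the sizes given.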
